A study of Mus musculus with 4 samples.

Results

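Described here are 10 genes of macrophage lipid handling in tumor-associated macrophages (TAMs) of a mouse neuroblastoma model: Apoe, Lpl, Fabp5, Abca1, Abcg1, Nr1h3, Plin2, Lipa, Spp1 and Gpnmb. They were chosen by name, as genes of lipid uptake, storage, lysosomal breakdown and cholesterol efflux with 2 genes, Spp1 and Gpnmb, that are often listed beside them. The choice was made with earlier results of these data known. All 10 of 10 were found among the 54532 genes of the deposited count table, and all 10 passed the filter on low counts that left 16451 genes to test. The SykMC-KO strain, on C57BL/6, came from a cross of floxed Syk mice with mice whose Cre recombinase is driven by lysozyme M (Lyz2), a promoter active in macrophages and also in neutrophils, and SykMC-WT is its wild type control. Syk encodes a tyrosine kinase that signals downstream of immune receptors. The SykMC-WT group (genotype label SYK WT, libraries M7 and M8) and the SykMC-KO group (label SYK KO, libraries M9 and M10) held 2 libraries each. All mice were given implants of NB9464 cells, a MYCN-amplified murine neuroblastoma line. The labels list no treatment, although the series title names an adoptive transfer and the extraction text names bone marrow-derived macrophages, which leaves the origin of the RNA in doubt. By the same labels, on day 40 the tumors were taken and TAMs were pulled out with magnetic beads against CD11b and F4/80, so each library is RNA of a bead-enriched fraction and not of single sorted cells. The labels do not say that the 2 libraries of a genotype came from separate animals, so p-values measure the spread between these libraries, which may be technical.

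Macrophages that take up much lipid, in fat tissue, in atherosclerotic plaque and in tumors, are known for a shared gene program. Lipoprotein lipase (Lpl) releases fatty acids from lipoproteins, Fabp5 carries them inside the cell, perilipin 2 (Plin2) coats the droplets in which they are stored, and lysosomal acid lipase (Lipa) breaks down the cholesteryl esters and triglycerides that arrive by endocytosis. Surplus cholesterol leaves through the transporters Abca1 and Abcg1 onto acceptors such as apolipoprotein E (Apoe), and the nuclear receptor LXR alpha (Nr1h3), which senses oxidized cholesterol, is known to drive Abca1, Abcg1, Apoe and Lpl. Osteopontin (Spp1) is a secreted integrin and CD44 ligand, and Gpnmb is a transmembrane glycoprotein of late endosomes and lysosomes under MITF-family factors.

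The targeted gene went against the labels. Syk was at 27.9 and 23.2 CPM (counts scaled to library size, here with TMM, edgeR's trimmed-mean factor) in M7 and M8 and at 196 and 160 CPM in M9 and M10, the libraries labelled SykMC-KO, a log2 fold change of 2.80 (SE 0.194, Benjamini-Hochberg adjusted p = 0.000674 from the quasi-likelihood test of edgeR) that turned to −0.053 under scaling by the macrophage markers below and to −0.83 when scaled to pan-leukocyte genes. Counts are per gene, so whether reads came from a deleted exon was not tested, and every direction below is that of the libraries as labelled. Lyz2, whose promoter drives the Cre, moved the other way from Syk. It was at 296 and 208 CPM in M7 and M8 and at 8.64 and 20.2 CPM in M9 and M10 (log2 fold change −4.13). What this says of the labels was not tested. Total counts ran from 20755886 to 23518045 per library, and 3 counts, the floor used here, were 0.109 to 0.163 CPM. Mitochondrial genes took 2.20% and 2.34% of counts in M7 and M8 but 6.00% and 15.9% in M9 and M10. All 10 macrophage markers fixed for this work (among them Adgre1, Csf1r and Cd68) were detected, and all 10 were higher in M9 and M10 at an adjusted p under 0.05, the median log2 fold change being 3.0. Their summed level was 666 and 450 CPM in M7 and M8 and 5042 and 3283 CPM in M9 and M10. The 8 fibroblast markers summed to 12432 and 14323 CPM in M7 and M8 and to 4084 and 4969 CPM in M9 and M10. These sums were above those of the macrophage markers in all libraries but M9. Most of each sum was Col1a1 (5662, 6641, 1811 and 2476 CPM in M7 to M10) and Col3a1 (6158, 7118, 1990 and 2121 CPM). Such sums rest on a few abundant transcripts and do not rank the cell types. In such bulk libraries fewer cells of a type and less RNA per cell cannot be told apart. The genotype label and these shifts move together, and their part in the results below was not tested.

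In the libraries labelled SykMC-KO, 9 lipid genes rose with TMM scaling and 1, Gpnmb, did not pass the test. Scaled to macrophage markers 3 of the 10 stayed above 0, and scaled to pan-leukocyte genes 2 did. These 2 scalings moved the median of all tested genes to −2.83 and −3.60. With TMM, at an adjusted p under 0.05, 9 of 10 were higher and 0 of 10 lower, beside 22.7% of all 16451 tested genes higher and 16.7% lower. In the same 9 genes both M9 and M10 lay above both M7 and M8, which was so for 38.0% of all tested genes. The median log2 fold change of the 10 genes was 2.23, beside 0.016 over all tested genes. With all libraries kept, the order by size was Spp1, Lpl, Abcg1, Plin2, Nr1h3, Apoe, Fabp5, Lipa, Abca1 and Gpnmb. Together the 10 genes took 0.171% and 0.140% of all counts in M7 and M8 and 0.639% and 0.347% in M9 and M10. With 2 libraries against 2, an exact two-sided permutation test of a single gene cannot go below p = 0.333, so the calls rest on the spread that edgeR shares across genes.

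**Figure D1:**
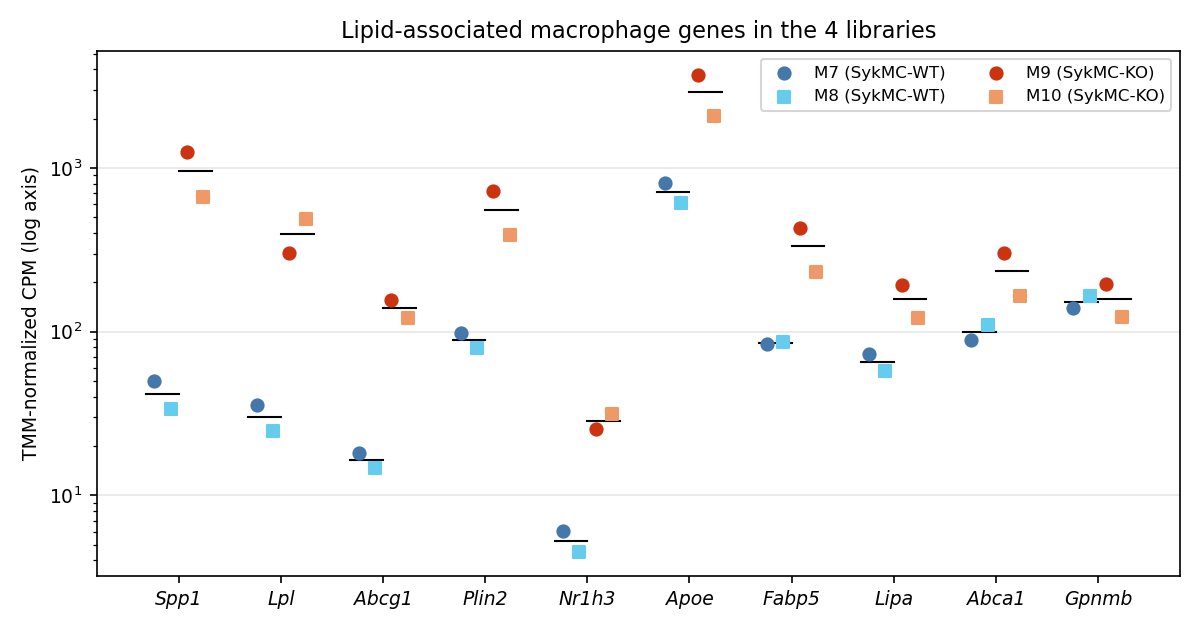
TMM-normalized CPM (log axis) of each of the 10 genes in the 4 libraries. Points are single libraries (blue, M7 and M8, SykMC-WT; red and orange, M9 and M10, labelled SykMC-KO) and short lines are the 2 group means; on this scaling M9 and M10 sit above M7 and M8 in 9 genes, and in Gpnmb the groups overlap.

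The promoter stretches of Spp1 and Gpnmb are shown first because these genes mark the ends of the range, the largest difference and the smallest. Each is the 250 bases upstream of the RefSeq start site in GRCm38.p6 (mm10), on the + strand, read 5′ to 3′. That of Spp1 is chr5:104434861-104435110 and that of Gpnmb is chr6:49036268-49036517. Capitals mark matches to the PU.1 motif GAGGAAGT and to the core promoter box TATAAA.
Spp1: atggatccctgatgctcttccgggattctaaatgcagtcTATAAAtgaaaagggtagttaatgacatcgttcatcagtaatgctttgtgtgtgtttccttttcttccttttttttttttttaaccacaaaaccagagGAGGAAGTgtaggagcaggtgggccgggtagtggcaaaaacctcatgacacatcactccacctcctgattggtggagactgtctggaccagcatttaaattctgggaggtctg
Gpnmb: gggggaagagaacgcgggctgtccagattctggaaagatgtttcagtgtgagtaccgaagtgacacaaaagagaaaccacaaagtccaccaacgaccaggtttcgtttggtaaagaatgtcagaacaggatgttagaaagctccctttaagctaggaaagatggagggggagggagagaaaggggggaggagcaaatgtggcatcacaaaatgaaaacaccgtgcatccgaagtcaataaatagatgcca
In Spp1 the TATAAA match lay at −211 to −206 and the GAGGAAGT match at −113 to −106, counted from the start site. None of the 7 motifs searched matched in Gpnmb.

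The Abca1 stretch is shown because Abca1 is a textbook LXR target. It lies at chr4:53159896-53160145 on the − strand, and its capitals mark a TATAAA match at −29 to −24.
Abca1: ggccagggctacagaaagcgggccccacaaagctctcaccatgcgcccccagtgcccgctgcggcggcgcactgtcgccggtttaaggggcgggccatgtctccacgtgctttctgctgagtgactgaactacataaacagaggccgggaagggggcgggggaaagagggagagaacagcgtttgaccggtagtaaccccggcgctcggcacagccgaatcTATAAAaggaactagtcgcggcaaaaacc
Windows were given for 7 of the 10 genes, all but Lpl, Fabp5 and Abcg1. Besides these 2 motifs, the search covered, on both strands, the LXR/RXR repeat DR4 (a pair of GGTCA half-sites 5 bases apart), the PPAR/RXR repeat DR1 (a pair of AGGTCA half-sites 1 base apart), the CLEAR core TCACGTGA of TFEB, TFE3 and MITF, the MITF M-box TCATGTGA, and the AP-1 site TGANTCA. The box TATAAA was found in 3 of 7 genes (Abca1, Spp1 and, on the other strand as TTTATA at −239 to −234, Lipa), beside 12.4% of 32851 windows of the same length. Both counts took any position and either strand, and of the 3 only the Abca1 match lay close to the start site. GAGGAAGT was found in 1 of 7, beside 2.44% of all windows. The other motifs were in 0 of 7, beside 6.75% of windows for AP-1, 0.785% for the CLEAR core, 0.846% for the M-box, 0.0639% for DR4 and 0.0335% for DR1. Only exact letters were counted, and so few windows hold DR4 or DR1 that 0 of 7 does not show their absence. The Abca1 stretch holds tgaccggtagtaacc, which on the other strand is the DR4 pattern with 1 base changed. Matches with 1 base changed were not counted in the other genes or over all windows, so how common they are is not known here. Apoe, Nr1h3, Plin2 and Gpnmb held no match, but the RefSeq start site used for Nr1h3 lies 7718 bases inside the GENCODE gene span, so its window is not upstream of the gene start given below. These letters describe the window and say nothing of binding.

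Spp1 (ENSMUSG00000029304, chr5:104435118-104441050 in mm10, + strand) showed the largest difference of the 10 with all libraries kept. It was at 49.9 and 33.6 CPM in M7 and M8 and at 1259.8 and 664 CPM in M9 and M10. Both libraries labelled SykMC-KO were far above both SykMC-WT libraries, and M9 was higher than M10. The means were 41.8 ± 11.5 and 962 ± 422 CPM (SD, n = 2 each), 23.0-fold apart. The log2 fold change was 4.52 (SE 0.403, adjusted p = 0.00101 by edgeR), in the top percent of tested genes (percentile 99.2). Spp1 shares 309 exon bases with the annotated transcript Gm42793 on the same strand, which held at most 36 counts in a library where Spp1 held 25949.

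Gpnmb (ENSMUSG00000029816, chr6:49036546-49070929, + strand) was the exception. It was at 140.03 and 165 CPM in M7 and M8 and at 195 and 123 CPM in M9 and M10. M9 was the highest library and M10 the lowest, so the groups overlapped. The means were 153 ± 17.7 and 159 ± 50.4 CPM (SD, n = 2 each), with a log2 fold change of 0.059 (SE 0.246, adjusted p = 0.869 by edgeR), at percentile 51.8 of all tested genes. The sign turned with the library left out, from −0.40 without M9 to 0.36 without M10.

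Of the lipid carriers and lipases, Lpl (ENSMUSG00000015568, chr8:68880491-68907448, + strand) moved most. Lpl was at 35.4 and 24.6 CPM in M7 and M8 and at 301 and 489.9 CPM in M9 and M10. It was one of 2 members, with Nr1h3, in which M10 and not M9 was the higher of the libraries labelled SykMC-KO. The means were 30.0 ± 7.68 and 395 ± 134 CPM (SD, n = 2 each), and the log2 fold change was 3.72 (SE 0.322, adjusted p = 0.000941 by edgeR).

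Apoe (ENSMUSG00000002985, chr7:19696109-19699188, − strand), the most abundant of the 10, was at 806 and 611 CPM in M7 and M8 and at 3716 and 2085 CPM in M9 and M10. The groups did not overlap, and the gap between M9 and M10 was wider than any within SykMC-WT. Means of 708 ± 138 and 2901 ± 1153 CPM (SD, n = 2 each) gave a log2 fold change of 2.03 (SE 0.351, adjusted p = 0.00671 by edgeR). Fabp5 (ENSMUSG00000027533, chr3:10012548-10016607, + strand) was at 83.8 and 86.2 CPM in M7 and M8 and at 432 and 231 CPM in M9 and M10. Its SykMC-WT libraries were nearly level, and both M9 and M10 were higher. The log2 fold change of Fabp5 was 1.96 (SE 0.305, adjusted p = 0.0048 by edgeR), between means of 85.0 ± 1.65 and 331 ± 142 CPM (SD, n = 2 each). A pseudogene copy, Fabp5l2, held 0 counts in every library.

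The cholesterol exporters differed in size. Abcg1 (ENSMUSG00000024030, chr17:31057675-31117988, + strand), which exports sterol to high-density lipoprotein, was at 18.2 and 14.7 CPM in M7 and M8 and at 157 and 120.3 CPM in M9 and M10. Its groups were well apart and its libraries close within each genotype. Abcg1 went from 16.4 ± 2.45 to 139 ± 26.0 CPM (SD, n = 2 each), a log2 fold change of 3.08 (SE 0.214, adjusted p = 0.000674 by edgeR). Abca1 (ENSMUSG00000015243, chr4:53030787-53159895, − strand), which loads cholesterol onto lipid-poor apolipoproteins, was at 89.2 and 109.9 CPM in M7 and M8 and at 303 and 165 CPM in M9 and M10. The groups did not overlap, but M10 was nearer to M8 than to M9. Abca1 went from 99.6 ± 14.6 to 234 ± 97.7 CPM (SD, n = 2 each), a log2 fold change of 1.24 (SE 0.303, adjusted p = 0.021 by edgeR). The call was lost without M7 (log2 fold change 1.09, adjusted p = 0.0815), and without M9 the log2 fold change was 0.64.

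Nr1h3 (ENSMUSG00000002108, chr2:91184061-91202834, − strand) was the least abundant of the 10, at 6.02 and 4.52 CPM in M7 and M8 and at 25.6 and 31.4 CPM in M9 and M10. M10 was the highest library and the groups were apart. The means were 5.27 ± 1.06 and 28.5 ± 4.14 CPM (SD, n = 2 each), with a log2 fold change of 2.43 (SE 0.252, adjusted p = 0.0015 by edgeR). It shares 34 exon bases with Gm13783 on the same strand, which held 0 to 2 counts.

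Droplet storage and lysosomal breakdown both had a higher gene. Plin2 (ENSMUSG00000028494, chr4:86648386-86670060, − strand) was at 98.2 and 79.7 CPM in M7 and M8 and at 718 and 388 CPM in M9 and M10. Both libraries labelled SykMC-KO were above SykMC-WT, M9 the more so. Plin2 rose from 89.0 ± 13.1 to 553 ± 234 CPM (SD, n = 2 each), a log2 fold change of 2.64 (SE 0.327, adjusted p = 0.00238 by edgeR). Lipa (ENSMUSG00000024781, chr19:34492318-34527474, − strand) was at 73.1 and 57.1 CPM in M7 and M8 and at 194 and 121 CPM in M9 and M10. The groups did not overlap, though the gap from M7 to M10 was smaller than that from M10 to M9. Lipa rose from 65.1 ± 11.3 to 158 ± 51.3 CPM (SD, n = 2 each), a log2 fold change of 1.28 (SE 0.262, adjusted p = 0.0118 by edgeR). Its call was lost without M8 (log2 fold change 1.10, adjusted p = 0.0748), and without M9 the log2 fold change was 0.81.

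M9 was the higher of the libraries labelled SykMC-KO in 8 of the 10 genes, by 1.31-fold (Abcg1) to 1.90-fold (Spp1), while Lpl and Nr1h3 in M9 were 0.614 and 0.814 times their level in M10. Leaving out M9 lowered the median log2 fold change of the 10 genes from 2.23 to 1.75. Without it Spp1 was at 3.90, Plin2 at 2.04, Apoe at 1.47 and Fabp5 at 1.35 on the log2 scale. Lpl at 3.94 was then above Spp1, and Nr1h3 at 2.49 above Plin2, so the order by size rests in part on M9. M9 was also the library with the higher macrophage marker sum of its group, and M10 the one with the higher mitochondrial share.

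Set against macrophage markers within the same library, the 10 genes lay on both sides of no difference. Dividing by the markers shifts every gene of a library alike, so within a library the distances between the genes stayed as they were. Distances between log2 fold changes did move. Spp1 and Lpl were at 4.52 and 3.72 with TMM and at 1.64 and 0.99 scaled to the markers. Counts were divided by the geometric mean count of the 10 macrophage markers, which asks how much of a transcript there was per count of these markers. With TMM the log2 fold changes of the markers themselves ran from 0.57 (Mertk) to 3.81 (Aif1), so the ratios depend on which markers are used. Spp1 was at 0.978 and 0.996 counts per marker count in M7 and M8 and at 3.42 and 2.72 in M9 and M10, so it stayed higher in the libraries labelled SykMC-KO. Lpl was at 0.694 and 0.728 in M7 and M8 and at 0.816 and 2.005 in M9 and M10, also without overlap, but M9 was close to SykMC-WT. Apoe went the other way, with 15.8 and 18.1 in M7 and M8 and 10.1 and 8.53 in M9 and M10. Fabp5 (1.64 and 2.55 against 1.17 and 0.945), Abca1 (1.75 and 3.26 against 0.823 and 0.676) and Lipa (1.43 and 1.69 against 0.526 and 0.496) were lower per marker in both M9 and M10. Gpnmb fell furthest, from 2.74 and 4.89 in M7 and M8 to 0.527 and 0.504 in M9 and M10. Abcg1, Nr1h3 and Plin2 overlapped between the groups. How many of all tested genes separate on this ratio was not counted. Scaled to these markers, the median log2 fold change of all tested genes was −2.83, so a lower ratio is not particular to these genes.

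**Figure D2:**
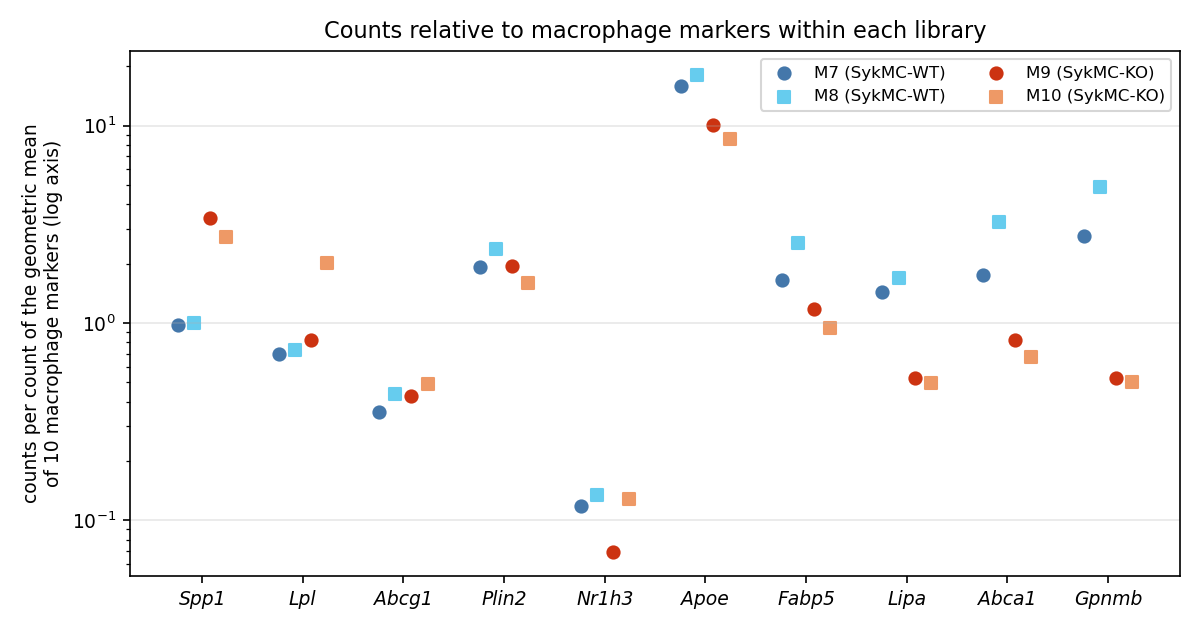
Counts of each gene divided by the geometric mean count of 10 macrophage markers of the same library (log axis), 1 point per library. Spp1 and Lpl are higher in M9 and M10 than in M7 and M8, Apoe, Fabp5, Abca1, Lipa and Gpnmb are lower, and Abcg1, Nr1h3 and Plin2 overlap. The share of all tested genes that separate in this way was not counted, and their median log2 fold change on this scaling was −2.83.

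The same fit scaled to the 10 macrophage markers gave 1 of the 10 genes higher and 3 lower, beside 112 of all 16451 tested genes higher and 14373 lower. Spp1 kept a positive log2 fold change of 1.64 (adjusted p = 0.0043 by edgeR). Abca1 was at −1.74 (adjusted p = 0.00235), Lipa at −1.61 (adjusted p = 0.0041) and Gpnmb at −2.89 (adjusted p = 2.23e-06), all lower. Lpl at 0.99, Abcg1 at 0.22, Plin2 at −0.28, Nr1h3 at −0.35, Apoe at −0.86 and Fabp5 at −0.99 did not pass the threshold. This scaling moved the median of all tested genes to −2.83, so that 9 of 10 lipid genes lay above it and Gpnmb just below. Scaled to 6 genes of all leukocytes (Ptprc, Cd53, Laptm5, Coro1a, Cd52 and Lcp1), Spp1 was again the only one of the 10 higher, at 0.86 (adjusted p = 0.0304). On that scaling 7 of 10 were lower, beside 55 of all tested genes higher and 15270 lower. Scaled by library size alone, which moved the median of all genes to −0.52, 7 of 10 were higher, beside 1677 of all tested genes higher and 5411 lower. Abca1 (0.73, adjusted p = 0.13) and Lipa (0.76, adjusted p = 0.0895) lost the call.

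**Figure D3:**
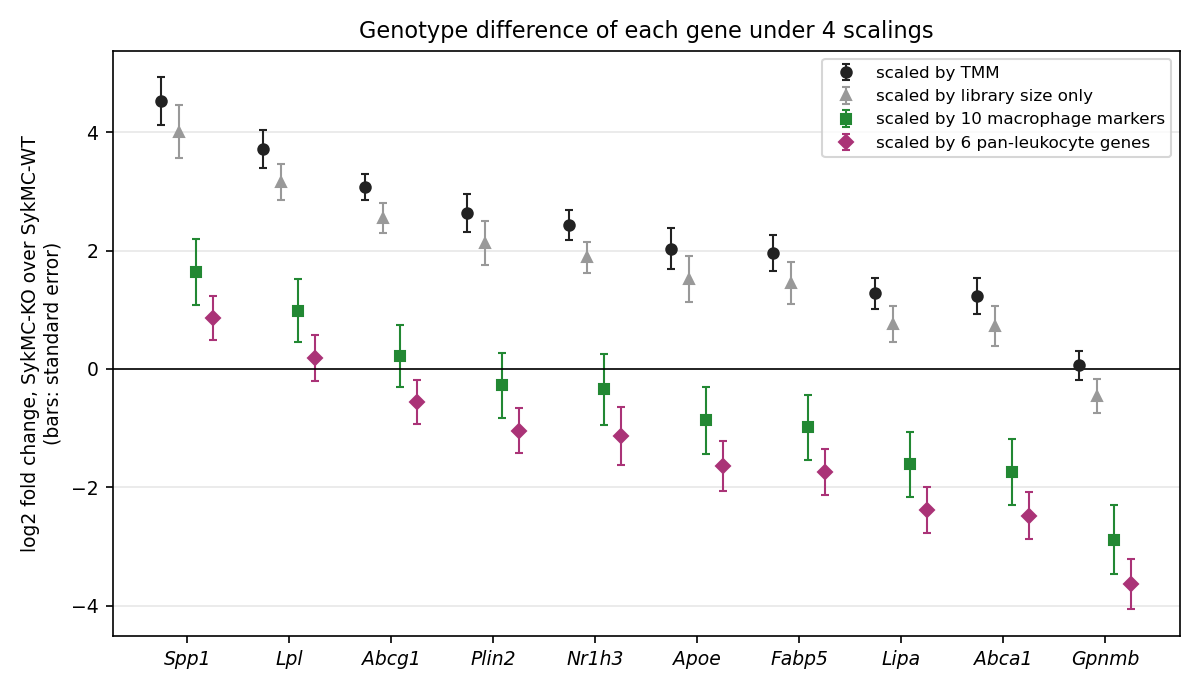
Log2 fold change of each gene, SykMC-KO over SykMC-WT as labelled, under 4 scalings of the libraries (symbols) with the standard error of each fit (bars), in order of the TMM value. The order of the genes is the same under all 4, while the zero line falls below 10 of 10 genes with TMM, below 3 with macrophage markers and below 2 with pan-leukocyte genes.

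Ratios between lipid genes within a library do not depend on the scaling. The pairs given here were chosen after their values were seen and carry no test. Spp1 held 0.356 and 0.204 counts per count of Gpnmb in M7 and M8 and 6.48 and 5.39 in M9 and M10. Lpl, the extracellular lipase, held 0.485 and 0.430 counts per count of the lysosomal lipase Lipa in M7 and M8 and 1.55 and 4.04 in M9 and M10. Abcg1 held 0.204 and 0.134 counts per count of Abca1 in M7 and M8 and 0.518 and 0.728 in M9 and M10. In all 3 pairs M9 and M10 were higher, so within the same libraries the secreted Spp1 and Lpl and the exporter Abcg1 gained on Gpnmb, Lipa and Abca1. Of the counts of the 10 genes, Apoe took 57.6% and 51.5% in M7 and M8 and 50.9% and 47.2% in M9 and M10. The share of Spp1 went from 3.57% and 2.83% to 17.3% and 15.0%, and that of Gpnmb from 10.005% and 13.9% to 2.66% and 2.79%.

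Levels can be compared between genes only per length, here as CPM per kilobase of merged exons. In SykMC-WT, Apoe led at 331 ± 64.4 CPM per kilobase (SD, n = 2). Spp1 (25.3 ± 6.99), Plin2 (25.3 ± 3.73), Fabp5 (23.8 ± 0.463) and Gpnmb (23.4 ± 2.72) followed, each overlapping its neighbour in the order. Abca1 (9.61 ± 1.41) and Lipa (9.60 ± 1.66) overlapped, as did Lpl (2.86 ± 0.733), Abcg1 (2.25 ± 0.336) and Nr1h3 (2.09 ± 0.421). In the libraries labelled SykMC-KO, Apoe at 1357 ± 539 and Spp1 at 584 ± 256 CPM per kilobase were each clear of the next gene. Plin2 (157 ± 66.6) and Fabp5 (92.9 ± 39.8) overlapped. Lpl (37.7 ± 12.8), Gpnmb (24.4 ± 7.74), Lipa (23.2 ± 7.57), Abca1 (22.6 ± 9.42) and Abcg1 (19.0 ± 3.56) formed a run of overlapping neighbours, and Nr1h3 (11.3 ± 1.65) was below them. The place of Lpl above Gpnmb, Lipa and Abca1 in this order rests on M10, where Lpl was at 46.8 CPM per kilobase and these were at 18.9, 17.9 and 15.9. In M9 Lpl, at 28.7, was level with Lipa (28.6) and below Gpnmb (29.9) and Abca1 (29.3). Merged exons count every annotated isoform, so a gene with a long exon that the cells do not use is set too low.

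The pattern over the 4 libraries was compared between genes by the root mean square difference of log2(CPM + 1), centred on its mean over the libraries, among 14263 genes of at least 1 CPM on average. Apoe and Fabp5 were closest to each other, at 0.165. Abca1 and Lipa were 0.242 apart, and Abcg1 and Plin2 0.282. Nr1h3 was nearest to Apoe (0.416), Lpl to Abcg1 (0.511), Gpnmb to Abca1 (0.577) and Spp1 to Lpl (0.697). Among all genes the nearest to Apoe were Cbr2 (0.0270) and Nectin4 (0.0321), to Fabp5 Itpripl2 (0.0515) and Gbe1 (0.0551), to Abca1 Nqo2 (0.0382) and Bcas1 (0.0551), and to Lipa Nxt2 (0.0214) and Klk8 (0.0368). The nearest to Abcg1 were Gm36161 (0.0204) and Dock8 (0.0269), to Plin2 Adam8 (0.0370) and Ms4a4a (0.0406), to Nr1h3 Lrg1 (0.0409) and Gm15387 (0.0521), and to Gpnmb Ppp1r3f (0.0159) and Fmn1 (0.0263). Spp1 had Ppbp (0.120) and Retnla (0.189) nearest, and Lpl had Gm7666 (0.0362) and Serpina3g (0.165). Within 0.25 of Spp1 lay 6 genes and of Lpl 5, while 1748 genes lay as near to Gpnmb. These are descriptions over 4 libraries that share their genotype split.

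Other genes of the same pathways were read from 7 lists, 107 genes without the 10 above, of which 100 were tested. Of these, 53 were higher in the libraries labelled SykMC-KO and 9 lower, and the median difference was 0.70 on the log2 scale, beside 22.7% of all tested genes higher, 16.7% lower and a median of 0.016. The counts of each list below are to be read against these same shares, and the lists too were written with earlier results of these data known. In the TREM2 program, the set of genes that the lipid-sensing receptor Trem2 is known for, 12 of 16 were higher and 1 lower, with a median of 2.24. Trem2 itself was at 16.8 and 10.9 CPM in M7 and M8 and at 130.3 and 75.8 in M9 and M10, a log2 fold change of 2.89 (SE 0.335, adjusted p = 0.00201 by edgeR) that turned to −0.76 when scaled to pan-leukocyte genes. The integrin subunit Itgax was at 6.93 and 4.68 CPM in M7 and M8 and at 164 and 171 in M9 and M10, a log2 fold change of 4.84 (adjusted p = 0.000486), and the lectin receptor Clec7a was at 3.73 (adjusted p = 0.000755). The macrophage growth factor Csf1 was the 1 lower gene, at 128 and 109 CPM in M7 and M8 and 60.9 and 41.6 in M9 and M10 (log2 fold change −1.21, adjusted p = 0.00806).

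Among genes of lysosomal lipid breakdown and the MITF and TFE factors, 12 of 16 were higher and 0 lower, with a median of 1.12. Gm2a, the activator protein of ganglioside breakdown, was at 119.5 and 114 CPM in M7 and M8 and at 787 and 776 in M9 and M10, a log2 fold change of 2.74 (adjusted p = 0.000674). Tfec, an MITF relative, had the same value, 2.74 (adjusted p = 0.00619), from lower counts. Gpnmb, a known target of this factor family, did not pass the test, as given above.

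The other lists were more mixed. In the sterol efflux and LXR list 8 of 19 were higher and 2 lower, with a median of 0.38. Ch25h, which makes 25-hydroxycholesterol, had a log2 fold change of 3.08 (adjusted p = 0.00451) and Apoc2, the cofactor of Lpl, of 3.06 (adjusted p = 0.0024). The lower genes were Abca7, a transporter related to Abca1, at −0.99 (adjusted p = 0.00673) and the LXR partner Rxrb at −0.51 (adjusted p = 0.0329). For fatty acid uptake and activation 5 of 13 were higher and 2 lower, with a median of 0.47. The fatty acid translocase Cd36 was at 14.3 and 12.0 CPM in M7 and M8 and at 177 and 65.9 in M9 and M10 (log2 fold change 3.20, adjusted p = 0.00385), and Fabp4 was at 1.37 (adjusted p = 0.00232). The lipoprotein receptor Vldlr fell, with a log2 fold change of −2.93 (adjusted p = 0.0014), as did Gpihbp1, which anchors Lpl on capillary endothelium, at −0.96 (adjusted p = 0.028).

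In the list of PPAR factors and fatty acid oxidation, 5 of 10 tested genes were higher and 0 lower, with a median of 0.62. Pparg, the PPAR of fat cells and macrophages, was at 1.24 and 1.87 CPM in M7 and M8 and at 12.1 and 11.8 in M9 and M10 (log2 fold change 2.94, adjusted p = 0.00218). Hadhb, a subunit of the mitochondrial trifunctional enzyme, was at 1.47 (adjusted p = 0.00191). Of the lipid droplet genes 6 of 13 tested were higher and 1 lower, with a median of 0.65. The lipase inhibitors G0s2 and Hilpda were at 2.21 (adjusted p = 0.00209) and 2.19 (adjusted p = 0.00837), and the lower gene, named after its values were seen, was Plin4 with 63, 32, 0 and 2 counts in M7 to M10. Of the receptors for Apoe, Spp1 and Gpnmb, 5 of 13 were higher and 3 lower, with a median of 0.20. Sorl1, an Apoe receptor, was at 3.69 (adjusted p = 0.000729) and the integrin subunit Itga4 at 2.56 (adjusted p = 0.000834), while the integrin subunits Itga5 and Itgav were at −1.38 (adjusted p = 0.00204) and −0.79 (adjusted p = 0.0284). Of the lower genes, Rxrb, Gpihbp1 and Itgav lost the call without M7 or without M8, and Abca7 without M8. Without M9 the log2 fold change of Hilpda was 1.32, of Cd36 2.24, of Ch25h 2.21 and of Tfec 1.85, all still past the threshold, and that of Itgav was −1.18, against −0.53 without M10. Scaled to the macrophage markers, 1 of the 100 pathway genes was higher and 74 lower, beside 112 and 14373 of all 16451 tested genes. Scaled to pan-leukocyte genes 1 was higher and 87 lower, beside 55 and 15270 of all tested genes. The 1 higher gene was Itgax under both (log2 fold change 2.06 and 1.27), and every other call as higher in these lists was lost. Vldlr, Csf1, Abca7, Rxrb, Gpihbp1, Itga5 and Itgav stayed lower under both, as most tested genes were.

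**Figure D4:**
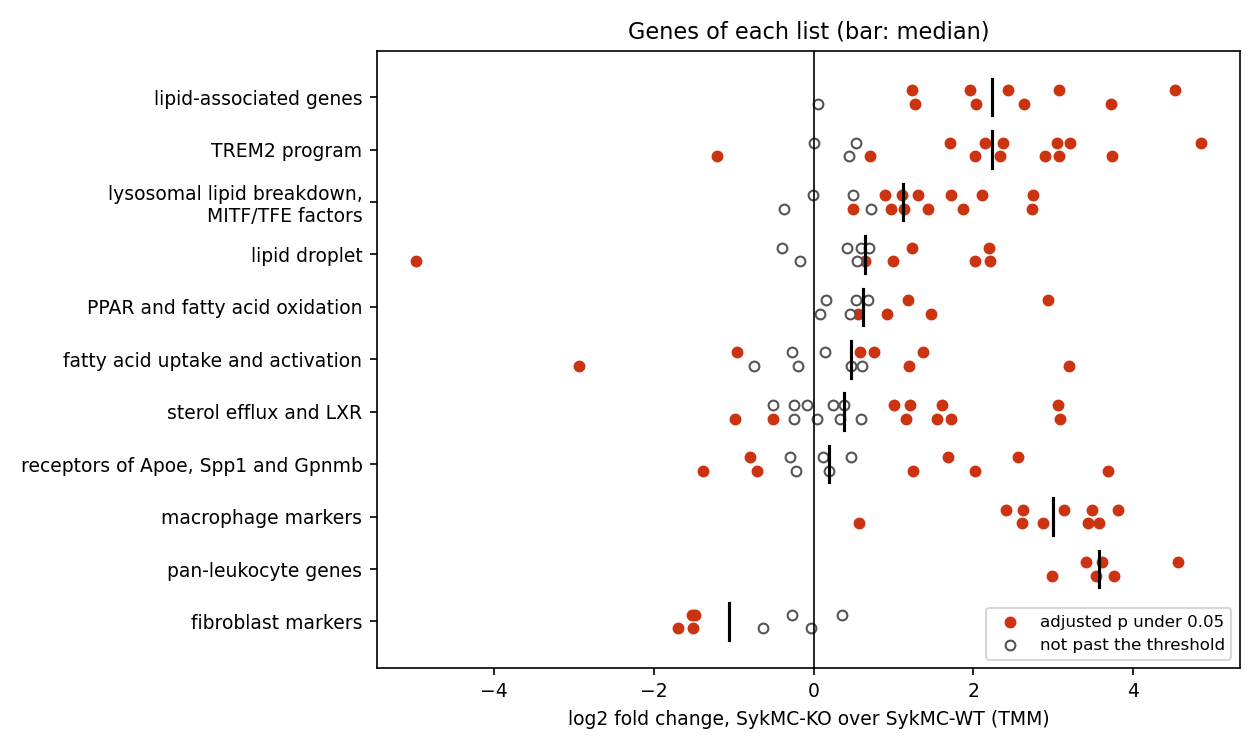
Log2 fold change (TMM) of every tested gene of each list, 1 point per gene, filled where the adjusted p was under 0.05, with the list's median as a bar. The lipid-associated genes and the TREM2 program have medians of 2.23 and 2.24, below the macrophage (3.0) and pan-leukocyte (3.57) markers and above the other pathway lists, and the fibroblast markers have a median of −1.06.

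Markers of other cells moved as well, beside every count above. All 6 pan-leukocyte genes were higher, with a median log2 fold change of 3.57, as were all 6 tested of 8 neutrophil markers (median 3.27), 4 of 7 tested dendritic cell markers (3.39) and 6 of 8 T cell markers (2.95). Summed neutrophil markers were at 29.7 and 42.7 CPM in M7 and M8 and at 465 and 233 in M9 and M10. Lower in M9 and M10 were 4 of 8 fibroblast markers (median −1.06), 3 of 8 endothelial markers (−0.56) and 5 of 8 pericyte and smooth muscle markers (−1.41), and none of these 3 lists had a marker that passed the test as higher. Fat cells also express Lpl, Plin2 and Fabp4. Of 8 adipocyte markers 1, Cfd, had enough counts to test, with 158, 36, 5 and 17 counts in M7 to M10 (log2 fold change −2.63, adjusted p = 0.0611 by edgeR). The defining adipocyte gene Adipoq had 15, 5, 0 and 0 counts in M7 to M10, Lep had 4, 11, 0 and 0, and Plin1 had 12, 4, 7 and 5. Of the sympathoadrenal markers of the tumor cells, Th and Dbh were at 0 counts in all 4 libraries, while Hand2 was at 262 and 301 CPM in M7 and M8 and at 178 and 286 CPM in M9 and M10 (log2 fold change −0.28, adjusted p = 0.418 by edgeR). Chga, the other one with enough counts to test, was at 10 and 3 counts in M7 and M8, at 59 in M9 and at 11 in M10, and did not pass the threshold (adjusted p = 0.0668). Of 5 tested Schwann cell markers 1, the myelin gene Mbp, was higher. Which of these cells the lipid gene transcripts came from was not tested.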

How the data were processed

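Poly(A) mRNA, by the labels that of bead-isolated TAMs, was sequenced in 4 libraries, 2 per genotype label. The deposited values are raw counts per Ensembl gene, 1 column per library. The authors' methods and the submitters' processing notes name STAR 2.6.1d, Salmon 1.4.0, SAMtools 1.9, Picard 2.26, MultiQC 1.11 and the mouse build mm10. The labels name paired reads on a NovaSeq and RNA from BMDMs after TAM isolation, the series title an adoptive transfer, and the methods single reads in triplicate. Strand handling is not given in the sources used here. Names, positions and merged exon lengths came from GENCODE M21 on the same build (54495 of 54532 genes named), promoters from RefSeq.

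Counts were tested as deposited with edgeR 4.0.16 in R 4.3.3 (filterByExpr, TMM, quasi-likelihood F test, no covariate, Benjamini-Hochberg over 16451 genes, threshold 0.05). The study used DESeq2, tried here as an alternative (1.42.0) with other scalings, filters and libraries left out. The scripts were tested on simulated data. Replicates differed by more than sampling noise (chi-square per degree of freedom 50.6 in SykMC-WT and 168 in SykMC-KO). Counting error is small at these depths, and floors cover counting error only.

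The members and lists were chosen with earlier results of these data known. Named pathway genes are the 2 highest and 2 lowest of each list that averaged at least 1 CPM, passed the threshold and did not overlap between groups. Named neighbours are the nearest member and the nearest 2 genes. Library M7 is SykMC-WT replicate 1, M8 replicate 2, M9 SykMC-KO replicate 1 and M10 replicate 2.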

Additional observations from a re-analysis of the deposited data

How the results depend on the processing

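With DESeq2 size factors, no filter beyond 1 count, at least 10 counts in every library, DESeq2's Wald test, or without mitochondrial and rRNA-like genes, 9 members were higher and 0 lower, and only Gpnmb changed sign, to −0.012 with 10 counts in every library. With a call also needing an absolute log2 difference of 1 or more, 2426 were higher and 4 pathway genes lower. Library size only gave 1677 genes higher, 5411 lower, 17 pathway genes lower, a member median of 1.70 and Gpnmb at −0.46. Scaled to macrophage markers, 112 genes were higher and 14373 lower, 1 and 3 members, 1 and 74 pathway genes, with a member median of −0.61. Values that turned were −0.86 for Apoe, −0.99 for Fabp5, −1.74 for Abca1, −0.35 for Nr1h3, −0.28 for Plin2, −1.61 for Lipa, −2.89 for Gpnmb, −0.053 for Syk, −1.49 for Fabp4, −1.35 for Hadhb, −0.73 for G0s2, −0.81 for Hilpda, −0.11 for Gm2a, −0.20 for Tfec and −0.32 for Itga4. Scaled to pan-leukocyte genes, 55 genes were higher and 15270 lower, 1 and 7 members, 1 and 87 pathway genes, with a member median of −1.38. Values that turned were −1.63 for Apoe, −1.74 for Fabp5, −2.48 for Abca1, −0.56 for Abcg1, −1.13 for Nr1h3, −1.04 for Plin2, −2.38 for Lipa, −3.63 for Gpnmb, −0.83 for Syk, −0.76 for Trem2, −0.64 for Ch25h, −0.59 for Apoc2, −0.52 for Cd36, −2.26 for Fabp4, −0.71 for Pparg, −2.13 for Hadhb, −1.48 for G0s2, −1.55 for Hilpda, −0.88 for Gm2a, −0.96 for Tfec and −1.08 for Itga4. Both marker scalings shift all genes together by construction. Leaving out each library in turn gave 1478 to 5010 genes higher, 807 to 4745 lower, 8 to 9 members higher and 0 lower, 36 to 65 pathway genes higher, 3 to 13 lower, a member median of 1.75 to 2.45 and Gpnmb at −0.40 to 0.36, where a lone library is assumed to vary like the other group; fewest genes passed without M8, most without M10, and the cause was not tested. No paired analysis was possible because the labels number the libraries M7 to M10 with no number shared between genotypes, and the replicate numbers used here follow accession order and pair nothing.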
